A study of Mus musculus with 15 samples.

Results

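Mouse hematopoietic stem cells (HSCs), which sit in the bone marrow and supply every blood lineage for life, were compared in 2 dividing states: after division in culture and after division in the marrow. The cultured cells were HSCs grown without drug (control, n = 3 libraries). The marrow cells were HSCs taken fresh from mice 4 days after 5-fluorouracil (5-FU, n = 4 libraries), a pyrimidine analog toxic to cycling cells, after which surviving stem cells divide. These 7 libraries were chosen by their labels from the 15 of the series, which also holds HSCs of untreated mice (n = 4) and HSCs cultured with nifedipine, a blocker of L-type calcium channels (n = 4). All libraries came from 100 sorted cells of wild-type C57BL/6 mice aged 8 to 10 weeks, and the cultured cells were sorted from those with at most 3 divisions. Neither the 5-FU dose nor the medium and length of the culture is given in the sources used here.

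A resting HSC divides rarely. Its entry into the cycle is opposed by CDK inhibitors and by transcription factors of stem cell identity, and division needs membrane lipids, nucleotides and proteins as well as the replication and mitosis machinery. In the marrow the cell receives contact and cytokine signals from niche cells. In a dish it receives the lipids, growth factors and oxygen that the medium supplies.

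Exon reads per library lay between 20145079 and 26673045 for control and between 9775640 and 17397392 for 5-FU. As a share of the read total that the deposited RPKM values imply, exon reads were 35.51% to 38.86% for control and 30.01% to 31.87% for 5-FU. Culture and 5-FU belong to separate experiments, so state and experiment cannot be told apart, and a gene was called only where its adjusted p was 0.05 or less and its difference at least 2-fold. Whether replicates were separate animals or cultures is not in the labels. The p-values therefore reflect the spread among these libraries alone, and that spread may be technical. Counting intervals cover counting error only, since the labels name no molecular identifiers. Log2 fold changes are control minus 5-FU, so a positive value means higher in culture. Levels are in CPM, exon read counts scaled to a common library size with TMM over all 15 libraries. Fewer cells of a type in a library and less RNA per cell cannot be told apart in these data.

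Of 13225 genes tested with edgeR's quasi-likelihood test, 455 were higher in culture, 3.44% of all tested, and 2083 were lower, 15.8% of all tested. The lower calls were mostly of genes at low levels: 1144 of them had a mean under 10 CPM in both groups, against 118 of the higher calls. The median log2 fold change of all genes was -0.035. With the exon reads alone as library size, without TMM, it moved to -0.22, and the calls to 304 higher and 2531 lower. The first principal component held 76.6% of the variance and separated the groups, and 8253 genes, 62.4% of all tested, had CPM values that did not overlap between the groups. On that component the 5-FU libraries lay between -65.73 and -50.39 and the control libraries between 73.12 and 78.99. Where a count of 0 is given for a family or a group within one below, DESeq2 and limma-voom also called 0 members, and 0 members were 2-fold different at an unadjusted p under 0.05.

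Lipid synthesis held the most members higher in culture, and the interferon response and the immediate early genes held the most members lower. Most genes of replication and mitosis lay within 2-fold, and 19.2% of all genes tested were called in either direction. The plot of family fold changes gives the members one by one.

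**Figure D1:**
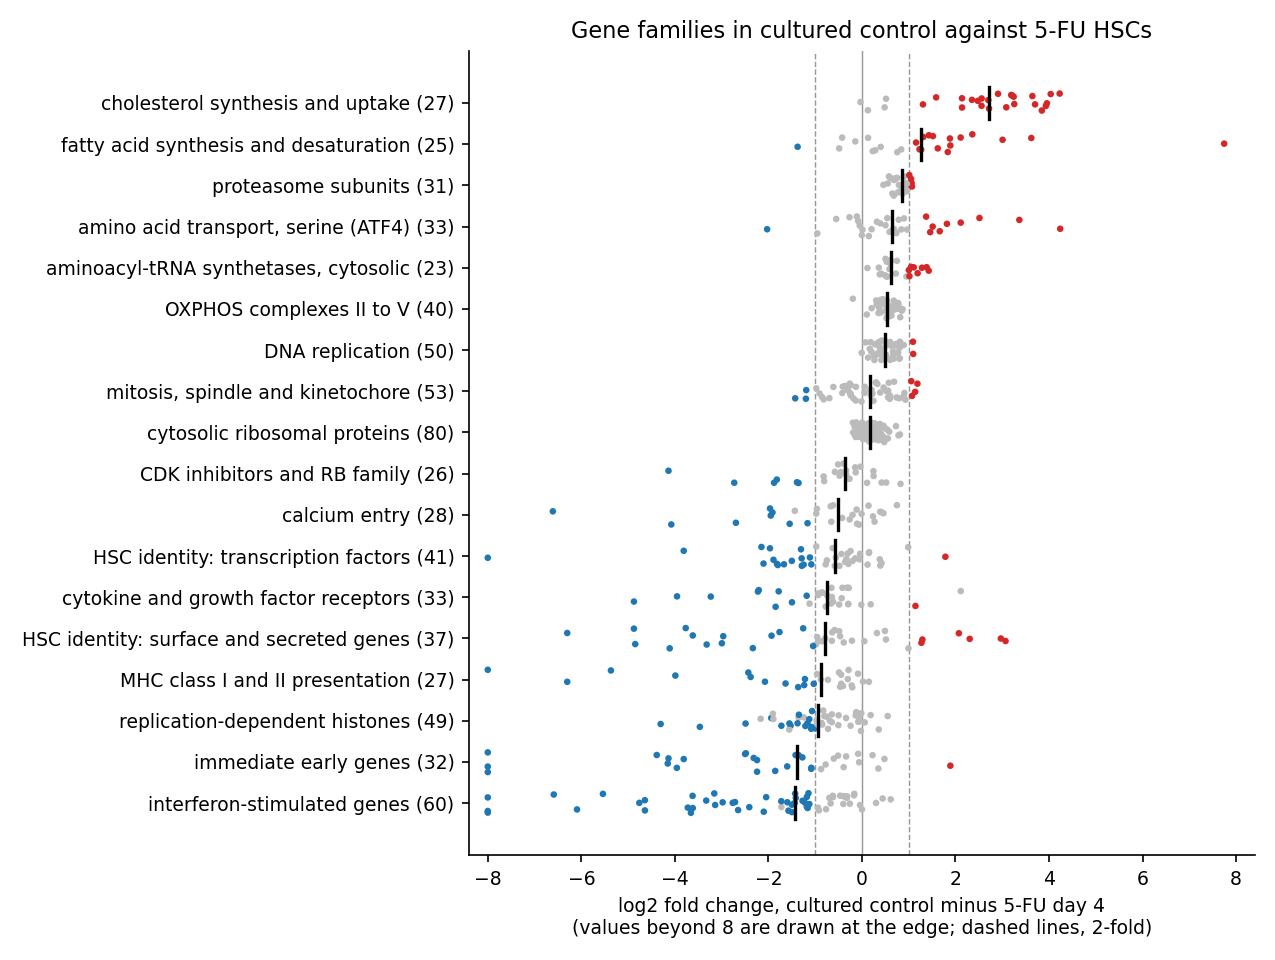
Log2 fold change (cultured control minus 5-FU day 4, x axis) of every tested member of 18 gene families (y axis, number of members in parentheses); red points were called higher in culture, blue points lower, grey points not called, and the black bar is the median. The cholesterol family has a median of 2.72 with no member called lower, the interferon-stimulated genes a median of -1.43 with none called higher, and the mitosis family a median of 0.18 with calls on both sides; genes with 0 reads in culture are drawn at the left edge.

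Cholesterol is made from acetyl-CoA through mevalonate and squalene, and cells that lack sterols switch the whole pathway on together through the SREBP transcription factors. Of its 27 genes, 23 were higher in culture and 0 were lower, with a median log2 fold change of 2.72, and 0 were lower at an unadjusted p under 0.05. The 3 control libraries had mean log2 CPM values of the list between 6.98 and 7.02, and the 4 5-FU libraries between 4.36 and 4.46, so the groups were far apart. The enzymes from acetyl-CoA to squalene were all higher (8 of 8, median 3.47), as were those from squalene to cholesterol (11 of 11, median 2.91).

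Hmgcs1, which makes the HMG-CoA that enters the mevalonate pathway (mm10 chromosome 13, 119690351 to 119708260), had 868, 734 and 798 CPM in the control libraries and 38.7, 46.3, 29.9 and 54.6 CPM in the 5-FU libraries. Every control library was more than 10-fold above every 5-FU library (log2 fold change 4.23 ± 0.14 SE, adjusted p = 1.23e-11, edgeR). Idi1, which interconverts the isoprenoid units, had 294, 319.7 and 238 CPM in control and 15.6, 19.8, 21.6 and 15.5 CPM after 5-FU (3.96).

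The other large differences followed the pathway. Fdps, which joins the isoprenoid units, was higher by 3.93 on the log2 scale. Mvd, which makes isopentenyl diphosphate, was higher by 3.85, and Lss, which closes the first sterol ring system, by 3.70. Of the enzymes that trim lanosterol, Msmo1 was higher by 4.04, Tm7sf2 by 3.65 and Nsdhl by 3.26. Acat2, the cytosolic thiolase that feeds the pathway, was higher by 3.21. The 4 members not called included Srebf2, the transcription factor itself (0.52), Lpin1 (0.13) and Ggps1, which leads to geranylgeranyl lipids and not to sterols (-0.03). The count of higher genes stayed at 23 when any one library was left out and under each other scaling, filter and tool run, and was 24 with nifedipine in place of control.

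The untreated libraries lay nearer to 5-FU in sterol genes, and the nifedipine libraries lay beside control. Hmgcs1 had a mean of 78.7 CPM in untreated and 813 CPM in nifedipine libraries, and the list mean was 4.77 to 5.40 in untreated and 6.90 to 7.06 in nifedipine libraries. State and experiment differ together here too.

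The SREBP motif (TCACNCCA, also as TCACNCCAC, either strand) was looked for in the 250 bases before to 50 after the start of each gene (RefSeq, GRCm38.p6), a window present for 10081 of the tested genes. It stood in 3 of 19 cholesterol genes with a window (15.8%) and in 4.55% of all. Msmo1 and Hmgcs1, with the match, were higher in culture, and Srebf2, with the match, was not called, while 14 of 16 genes without it in this window were higher. A match is a description of these letters and not of binding. The 2 stretches are shown because these are the genes that hold the motif and were higher in culture. Capitals mark the motif; Hmgcs1 is chr13:119690181-119690280, plus strand, and Msmo1 is chr8:64733699-64733798, minus strand.
Hmgcs1: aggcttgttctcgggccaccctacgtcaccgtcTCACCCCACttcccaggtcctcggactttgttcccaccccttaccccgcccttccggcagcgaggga
Msmo1: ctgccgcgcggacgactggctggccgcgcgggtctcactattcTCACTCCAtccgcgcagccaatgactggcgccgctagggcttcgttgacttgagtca

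Fatty acid synthesis and desaturation moved the same way. Of 25 genes, 15 were higher and 1 was lower, with a median of 1.27. Scd1, the stearoyl-CoA desaturase that makes monounsaturated fatty acids (chromosome 19, 44394450 to 44407709), had the largest positive difference of the named genes: 858, 827 and 816 CPM in control and 3.33, 2.87, 3.99 and 4.86 CPM after 5-FU (7.75 ± 0.0961 SE, adjusted p = 4.84e-16, edgeR). No library of one group came near the other. Its relative Scd2 was the most abundant of the family, at 179.5 RPKM (reads scaled by exon length and library size) in control and 13.7 RPKM after 5-FU, with a log2 fold change of 3.62.

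Fasn, the fatty acid synthase, had 959.7, 999 and 1022 CPM in control and 283, 268, 275 and 271 CPM after 5-FU (1.84). Acly, which makes cytosolic acetyl-CoA from citrate, was higher by 1.62, and Me1, a source of the NADPH that synthesis uses, by 3.01. The desaturase Fads2 and the elongase Elovl6 were higher by 2.36 and 1.89. Acsl3 and Acsl4, which activate fatty acids as CoA esters, were higher by 2.11 and 1.88. The 1 lower member was Acacb, the mitochondrial acetyl-CoA carboxylase that restrains fatty acid oxidation (-1.38); it lost its call under the length and GC correction, at -0.94. With nifedipine in place of control, 11 of the 25 were higher.

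**Figure D2:**
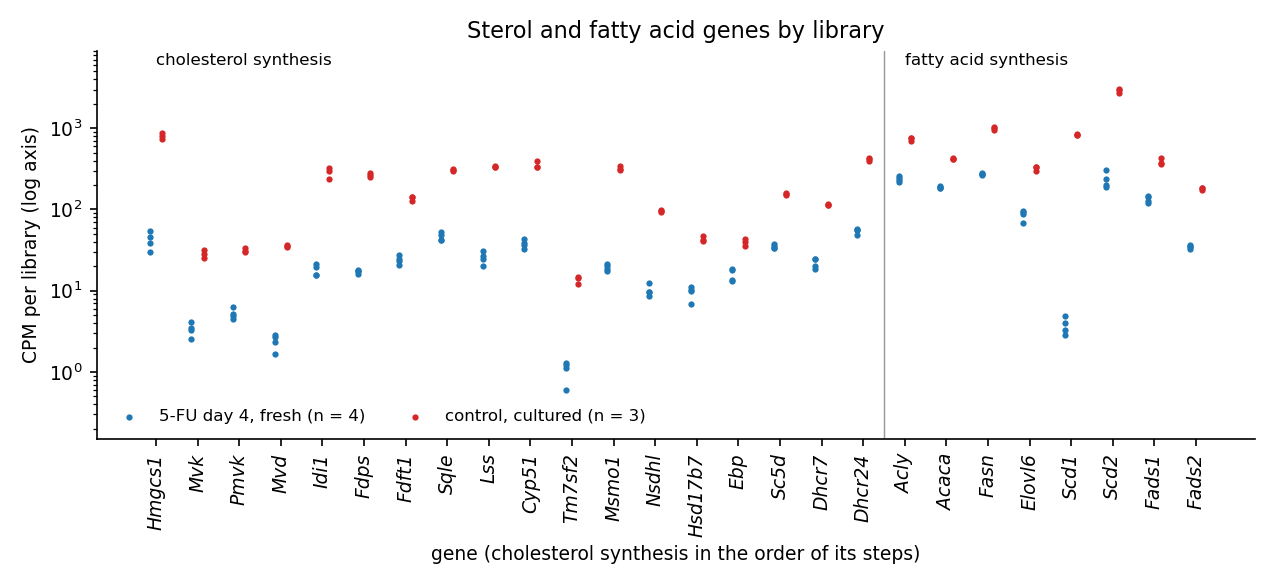
CPM of 26 genes of cholesterol and fatty acid synthesis (x axis) in each cultured control library (red, n = 3) and each 5-FU library (blue, n = 4) on a log axis. In each gene drawn all red points lie above all blue points, and the gap is largest for Scd1, at 816 to 858 against 2.87 to 4.86 CPM.

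Idh1, a cytosolic enzyme that yields NADPH, was also higher, with 161, 154 and 171 CPM in control and 25.8, 24.9, 18.1 and 28.9 CPM after 5-FU (2.71). Of the 10 pentose phosphate genes, whose oxidative arm yields NADPH and whose other arm yields ribose, 4 were higher and 0 lower: Pgd (1.80), Tkt (1.77), G6pdx (1.19) and Taldo1 (1.04). Taldo1 was close to the 2-fold limit. Genes that carry cholesterol out of the cell were not higher in culture: of 11, 0 were higher, 4 at an unadjusted p under 0.05 of any size, and Apoe, a lipoprotein abundant in macrophages, was lower (4.91, 3.76 and 4.17 against 52.9, 59.3, 57.3 and 72.97 CPM, -3.83).

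Glycolysis, the breakdown of glucose to pyruvate and lactate, had 3 of 30 genes higher and 5 lower (median 0.31), and the lower share is near the 15.8% of all genes. The higher count was 7 when libraries were scaled by the RPKM read total, and the lower count 2 among genes of at least 10 CPM and 2 with nifedipine in place of control. Ldha, lactate dehydrogenase and the most abundant of the family per length, had 1694, 1743 and 1758 CPM in control and 882, 890.5, 846 and 861 CPM after 5-FU, a difference just under 2-fold (0.97). Slc2a1, the main glucose carrier of blood cells, had 59.9, 57.3 and 68.4 CPM in control and 56.9, 56.7, 56.5 and 51.04 CPM after 5-FU, values that nearly touched (0.14, adjusted p = 0.158, edgeR). The 3 higher members were Aldoc (1.97), the lactate carrier Slc16a1 (1.30) and Aldoa (1.13). The lower members were Pdk4 (-3.90), Hk3 (-3.89), Eno2 (-2.10), Pdk2 (-1.66) and Ldhb (-1.46). Pdk2 and Pdk4 are kinases that hold pyruvate back from the mitochondria, and Hk3 is a hexokinase of myeloid cells. Hk3 had a mean of 2.42 ± 0.354 CPM (SD, n = 3) in control and 35.1 ± 10.4 CPM (SD, n = 4) after 5-FU.

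Several large families of mitochondria and ribosome assembly had medians slightly above 0. All 40 genes of oxidative phosphorylation complexes II to V lay within 2-fold, with a median of 0.53, 38 of them higher at an adjusted p of 0.05 or less of any size (edgeR, where such calls made up 30.4% of all genes in this direction). The mitochondrial ribosomal proteins had a median of 0.48, with 63 of 79 higher at any size, and the ribosome biogenesis factors 0.64, with 48 of 55. The cytosolic ribosomal proteins had a median of 0.18, with 47 of 80 higher and 4 lower at any size and 0 called. Complexes II to V had a median of 0.35 without TMM and 0.005 with nifedipine in place of control. Mitochondrial ribosomal proteins had 0.30 and 0.063, and ribosome biogenesis factors 0.463 and -0.104, a turned sign. The cytosolic ribosomal proteins turned to -0.005 without TMM and to -0.031 with the length and GC correction.

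Proteasome subunits, which degrade tagged proteins, shifted evenly. All 31 were higher at an adjusted p of 0.05 or less, with a median of 0.86 and values from 0.46 to 1.07, and 6 passed the 2-fold limit (Psmd2, Psmc3, Psmd4, Psmd1, Psmb3 and Psmd13). The count past that limit was 11 when libraries were scaled by the RPKM read total and 0 without TMM, and the 6 lie close to the limit. The median stayed above 0, between 0.59 and 0.95 within these 7 libraries and at 0.19 with nifedipine in place of control.

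Amino acid supply was higher for a part of its genes. ATF4 is the transcription factor that answers amino acid shortage and other stresses. In a list of 33 of its known targets, 9 were higher and 1 lower (median 0.65). The list holds amino acid carriers and serine synthesis enzymes, and also other targets such as Chac1 and Ppp1r15a. Slc7a11, the cystine carrier (chromosome 3, 50364936 to 50499087), had 47.8, 37.5 and 42.9 CPM in control and 3.39, 1.68, 3.11 and 0.448 CPM after 5-FU (4.24 ± 0.32 SE, adjusted p = 5.62e-08, edgeR). Its lowest control library was more than 10-fold above its highest 5-FU library. Asns, which makes asparagine, had 117, 103 and 102 against 35.4, 30.97, 26.1 and 27.6 CPM (1.82).

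The leucine carrier Slc7a5 was higher by 1.51, the neutral amino acid carrier Slc1a4 by 2.11, and the serine and folate enzymes Psat1 and Mthfd2 by 1.37 and 1.66. Chac1, which degrades glutathione, was higher by 2.51 from a low level (2.39 against 0.421 CPM). The lower member was Ppp1r15a (-2.03), the phosphatase subunit that ends the stress block on translation. In the nifedipine libraries these genes stood far above both groups, with Slc7a11 at 453 CPM and the list mean at 6.39 to 6.49 against 5.00 to 5.18 in control and 4.27 to 4.40 after 5-FU.

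Of the 23 cytosolic aminoacyl-tRNA synthetases, which load amino acids onto tRNA, 8 were higher and 0 lower (median 0.62), led by Aars (258, 262 and 273 against 107, 109.7, 80.8 and 90.7 CPM, 1.43), Lars (1.38), Nars (1.28) and Yars (1.19). Most of the 8 lay near 2-fold, and 4 remained past the limit without TMM. The ATF4 motif TGATGCAA (either strand) stood in 5 of 27 genes of the ATF4 target list with a promoter window (18.5%). It stood in 4 of 15 tRNA synthetases (26.7%), against 0.704% of all. Of the 5 genes of the target list with the motif 4 were higher, and of the 22 without it 3 were. The stretches of Slc7a11 and Chac1 are shown because they held the motif and were among the largest differences of the list. Capitals mark the motif, which Slc7a11 holds on both strands; Slc7a11 is chr3:50443624-50443723, minus strand, and Chac1 is chr2:119351002-119351101, plus strand.
Slc7a11: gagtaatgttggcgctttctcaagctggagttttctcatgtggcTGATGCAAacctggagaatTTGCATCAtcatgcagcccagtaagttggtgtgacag
Chac1: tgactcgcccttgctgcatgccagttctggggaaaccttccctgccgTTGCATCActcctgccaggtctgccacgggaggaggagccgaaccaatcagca

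Both states were dividing, and the mean level of the mitosis list was near in them. Mki67, which encodes the Ki-67 antigen of cycling cells (chromosome 7, 135689788 to 135716409), had 1521, 1525 and 1479 CPM in control and 1309, 1310, 1232 and 1161 CPM after 5-FU (0.25 ± 0.0505 SE), against a mean of 153 CPM in untreated HSCs. The 3 control values stood above the 4 5-FU values by a small margin. Of 53 genes of mitosis, 46 lay within 2-fold, 4 were higher and 3 were lower, with a median of 0.18. Of all genes tested, 19.2% were called in either direction. At an adjusted p of 0.05 or less of any size (edgeR), 24 mitosis genes were higher and 18 lower. The shares of all genes at that limit were 30.4% and 31.4%. The mean of the mitosis list was 6.55 to 6.57 log2 CPM in control and 6.33 to 6.58 after 5-FU, so the groups overlapped.

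The 7 called mitosis genes lay between 2-fold and 3-fold. Cdc20, which starts anaphase, was higher by 1.19, and Cenpa, the centromeric histone, Cdca8 and cyclin B2 (Ccnb2) by 1.14, 1.07 and 1.05. Ect2, Prc1 and Kif23, which act at the central spindle in cytokinesis, were lower, at -1.43, -1.20 and -1.19. Ect2 had 61.9, 50.9 and 60.2 CPM in control and 154, 169, 144 and 146 CPM after 5-FU. The counts were 1 higher and 6 lower without TMM, and 1 higher and 5 lower with the length and GC correction.

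Of 50 replication genes, 45 were higher at an adjusted p of 0.05 or less of any size and 2 by 2-fold, the ribonucleotide reductase subunit Rrm2 (1.10) and the origin protein Orc1 (1.09); the median was 0.49. The 6 MCM helicase subunits lay between 0.33 and 0.84. Tyms, thymidylate synthase and the enzyme that 5-FU inhibits, had 168, 175 and 180.2 CPM in control and 119, 134, 168 and 139 CPM after 5-FU (0.30). Its lowest control library and its highest 5-FU library were nearly equal. With nifedipine in place of control, 0 replication genes were higher, and the median was -0.08.

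Histone genes that are made in S phase went the other way. Of 49 tested, 16 were lower and 0 higher, 0 also at an unadjusted p under 0.05 of any size, with a median of -0.94. Their mature mRNAs end in a stem-loop and not in a poly(A) tail. Hist2h2bb had 24.4, 49.6 and 27.6 CPM in control and 92.2, 85.4, 84.2 and 76.5 CPM after 5-FU (-1.35), and the linker histone gene Hist1h1c had 3.64, 8.77 and 3.70 against 13.6, 14.6, 15.4 and 17.01 CPM (-1.53). Control 2 stood above the other control libraries in both genes. Without it 26 histone genes were lower, and 9 were lower among genes of at least 10 CPM.

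Among G1 regulators 2 CDK partners moved apart. Cdk6, a kinase that commits cells to the cycle (chromosome 5, 3343893 to 3531008), had 1333, 1345 and 1294 CPM in control and 378, 417, 384 and 380.1 CPM after 5-FU (1.75 ± 0.0496 SE, adjusted p = 2.53e-12, edgeR). Ccnd1, cyclin D1 (chromosome 7, 144929931 to 144939937), had 37.4, 40.2 and 27.96 CPM in control and 216, 220.4, 190.3 and 241 CPM after 5-FU (-2.64 ± 0.12 SE, adjusted p = 1.98e-10, edgeR). The control level of Ccnd1 was near that of untreated HSCs (42.6 CPM), and the nifedipine libraries lay between, at 121 CPM.

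The other called G1 gene was cyclin E1 (Ccne1), higher by 1.39; the family held 24 genes with a median of 0.26. Ccnd2, cyclin D2, had 596, 578 and 599.9 CPM and 536, 549.8, 538 and 564 CPM (0.09), a difference that missed the test (adjusted p = 0.093, edgeR). Myc overlapped between the groups (86.9 against 72.9 CPM, 0.23).

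Of 26 CDK inhibitors, retinoblastoma family and antiproliferative genes, 6 were lower in culture, beside 15.8% of all genes, and 0 higher (median -0.37). Of these 26, 4 were higher at an unadjusted p under 0.05 of any size. With nifedipine in place of control 4 were higher and 3 lower, and the median was 0.272. Cdkn1c, the p57 inhibitor of quiescent HSCs, had 7.74, 7.19 and 7.98 CPM in control and 23.6, 27.7, 27.3 and 32.5 CPM after 5-FU (-1.88 ± 0.14 SE, adjusted p = 5.66e-08, edgeR). Txnip, which restrains glucose uptake and binds thioredoxin (chromosome 3, 96557957 to 96561857), had 82.95, 84.2 and 86.4 against 509, 488, 585 and 631 CPM (-2.73), far below the 1200 CPM of untreated HSCs. Both were lower in every control library than in any 5-FU library.

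The other 4 were the transcription factors Klf2 (-4.14), Foxo1 (-1.82) and Klf6 (-1.35) and the glucocorticoid-responsive Tsc22d3 (-1.39). Cdkn1a, the p21 inhibitor that p53 induces, had 9.39, 14.2 and 14.1 CPM and 12.9, 15.2, 17.3 and 16.9 CPM, which overlapped. Of 33 p53 targets, 2 were higher, Bax (1.21) and Pmaip1 (2.44, at 0.882 against 0.173 CPM, not called without control 1 at 2.227), and 7 lower (3 among genes of at least 10 CPM), led by Plk2 (-3.22), Ephx1 (-2.37) and Phlda3 (-1.96). Beside the 7 lower targets, 15.8% of all genes were lower, and the median of the list was -0.336. With nifedipine in place of control 17 targets were higher and 0 lower, with a median of 0.891.

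**Figure D3:**
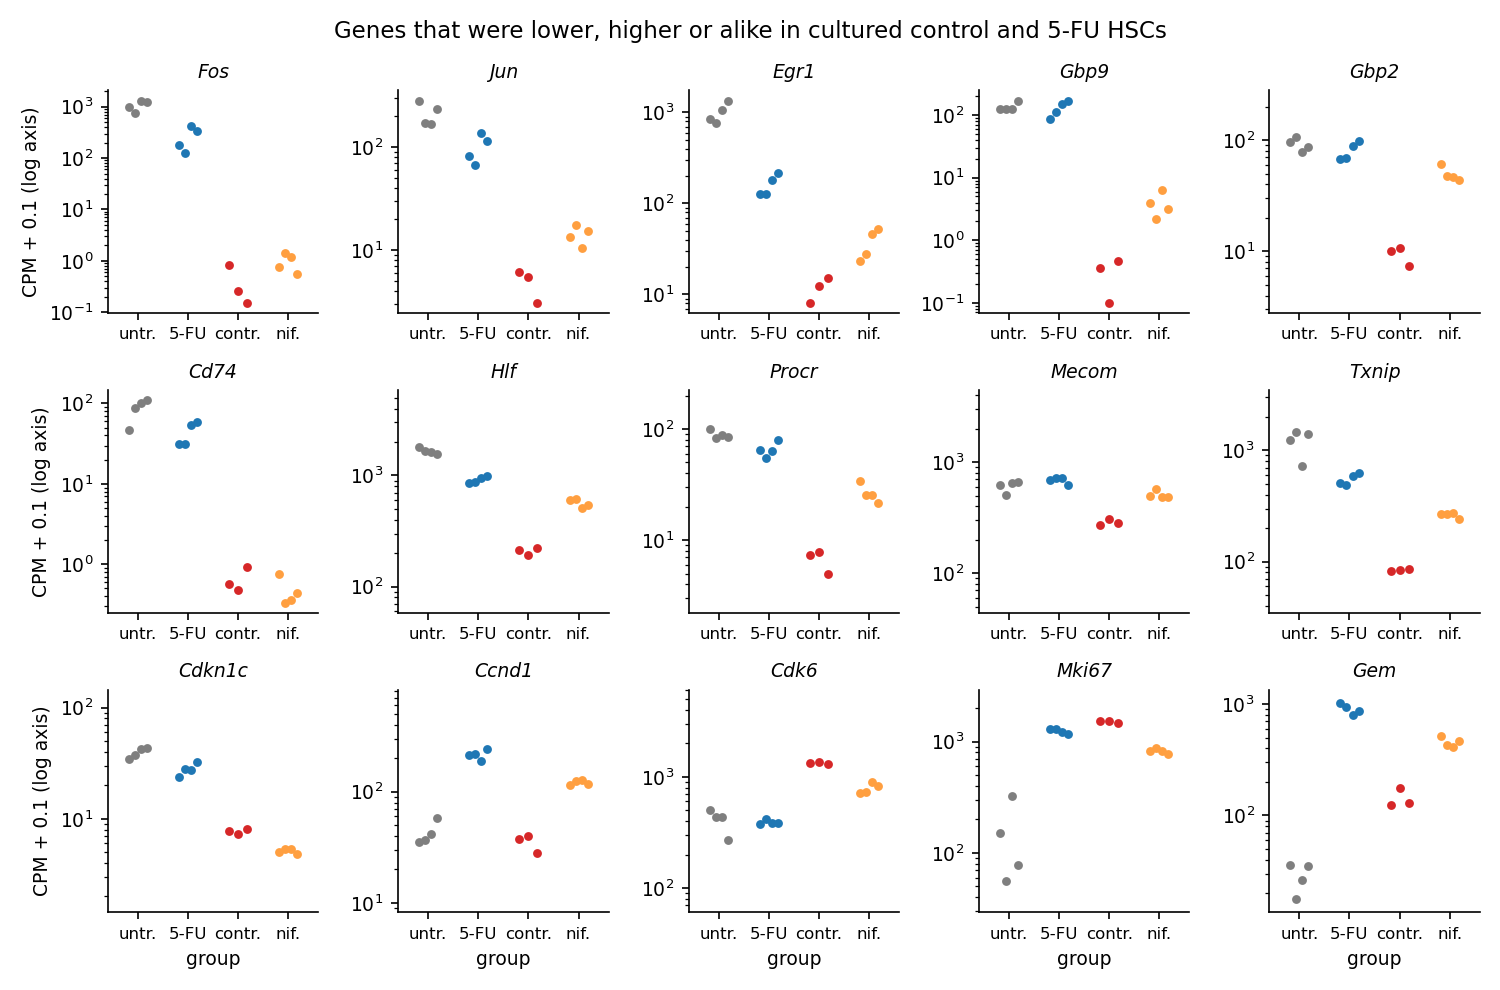
CPM + 0.1 on a log axis of 15 genes in each library of the 4 groups (untr., untreated, n = 4; 5-FU, day 4 after 5-FU, n = 4; contr., cultured control, n = 3; nif., cultured with nifedipine, n = 4), 1 point per library. Fos, Gbp9, Cd74, Hlf, Procr and Ccnd1 are lower in every control library than in any 5-FU library, Cdk6 is higher, and Mki67 is near equal at 1479 to 1525 against 1161 to 1310 CPM.

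Immediate early genes, which signals switch on within minutes and which encode AP-1, EGR and NR4A factors, were lower in culture. Of 32 genes, 20 were lower and 1 higher, with a median of -1.39. Fos, a subunit of AP-1 (chromosome 12, 85473901 to 85477269), had 0.719, 0.163 and 0.0522 CPM in control, 21 reads in all, and 181, 124, 423 and 336 CPM after 5-FU (-9.60 ± 0.60 SE, adjusted p = 8.35e-09, edgeR). The 5-FU libraries themselves ranged more than 3-fold, and their lowest was far above every control library. Fosb had 0.352 CPM against 126 CPM (-8.52).

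Jun, the partner of Fos, had 6.09, 5.39 and 2.97 CPM in control and 82.5, 66.8, 138 and 114 CPM after 5-FU (-4.39), and Egr1 had 8.00, 12.3 and 15.2 against 128, 126, 179 and 215 CPM (-3.81). Egr3 had 0 reads in each control library and 5.55, 6.53, 33.2 and 25.7 CPM after 5-FU, at least 380.0-fold lower in culture when 3 reads in all control libraries together are taken as the floor. The NR4A nuclear receptors were all lower (3 of 3), with Nr4a1 at 5.42, 4.96 and 4.22 against 47.8, 35.7, 138 and 120.2 CPM (-4.15). Dusp1, a phosphatase that turns MAP kinases off and is itself induced early, was lower, at -3.96 on the same scale.

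Not all members followed. Btg2, an antiproliferative early gene, had 5.75, 8.06 and 11.8 CPM in control and 8.22, 6.33, 13.1 and 14.5 CPM after 5-FU, overlapping values, both far under the 197 CPM of untreated HSCs. Gadd45b was the 1 member higher in culture (1.89, 4.22 against 1.11 CPM). Within the 5-FU group, replicates 3 and 4 had the higher values of Fos, Jun, Egr3 and Nr4a1, and the list mean ran from 3.84 to 4.87 log2 CPM, wider than in control (2.32 to 2.36). The list mean was 5.37 to 5.96 in untreated HSCs, the other group taken fresh, and 2.69 to 2.98 in nifedipine libraries, the other cultured group.

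Feedback genes of the ERK pathway, most of them induced by ERK itself, were 5 lower and 1 higher of 18, and 9 lower without TMM. The lower ones were Dusp1, Spry1 (-2.17), Dusp6 (-1.69), Dusp2 (-1.42) and Dusp5 (-1.11), and the higher one the kinase gene Mapk6 (1.24). Among 26 NF-kB genes, 8 were lower and 2 higher (median -0.57); the inhibitor Nfkbia had 13.8, 15.5 and 11.7 against 38.2, 34.7, 36.98 and 40.4 CPM (-1.48) and Nfkbiz was lower, at -2.13, while Tnfaip2 and Myd88 were higher by 1.65 and 1.24. The factors Nfkb1 and Rela were within 2-fold (0.22 and -0.04). The lower count of the NF-kB genes was 3 among genes of at least 10 CPM. Beside the ERK feedback and NF-kB counts, 15.8% of all genes were lower and 3.44% higher. With nifedipine in place of control, the ERK feedback median was -0.082, against -0.724 with control. The NF-kB median was then 0.015.

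Interferon-stimulated genes formed the largest block of lower genes. Interferons signal through JAK kinases to STAT factors, which switch on antiviral GTPases, RNA sensors and antigen presentation. Of 60 tested, 38 were lower in culture and 0 higher, with a median of -1.43 and 3 higher at an unadjusted p under 0.05 of any size. The list mean was 3.52 to 3.63 log2 CPM in control and 5.34 to 5.97 after 5-FU.

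All 8 guanylate-binding proteins (GBPs), GTPases that attack intracellular pathogens, were lower. Gbp9 had 0.254, 0 and 0.365 CPM in control and 87.7, 112, 149 and 170.2 CPM after 5-FU (-9.22 ± 0.37 SE, adjusted p = 9.17e-11, edgeR), and Gbp2 had 9.90, 10.5 and 7.20 against 67.02, 68.96, 89.3 and 98.9 CPM (-3.16). Gbp6 had 0 reads in each control library and 57.9, 77.97, 115 and 116 CPM after 5-FU, at least 1880-fold lower against the floor of 3 reads. GBP genes are closely related copies, and how the counting split their reads is not given, so single values are uncertain.

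Of 7 immunity-related GTPases 5 were lower, with Iigp1 at 4.57, 6.15 and 5.01 against 84.1, 115, 130.1 and 185 CPM (-4.64). Of the 10 IFIT, OAS and viperin genes, which bind viral RNA or block viral growth, 8 were lower: Ifit1 had 0.719, 0.599 and 0.939 CPM in control and 8.61, 13.8, 38.3 and 20.1 CPM after 5-FU (-4.76). Stat2, a factor that interferon signals activate, lay at -0.04. The membrane proteins Ifitm1, Ifitm2 and Ifitm3, abundant in HSCs, were within 2-fold (-0.47, -0.17 and -0.26).

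The interferon-stimulated response element, sought on either strand as GAAA, any 2 bases and GAAA again, stood in 24 of 44 genes with a promoter window (54.5%) and in 3.73% of all. Of the 24, 15 were lower in culture and 9 were not called, and of the 20 without it 11 were lower. The 4 stretches are shown because they carry the element in genes with large differences (Ifit1, Ifit3 at -4.64, Gbp2 and Rsad2 at -2.98). Capitals mark the element, which reads TTTC, 2 bases and TTTC here because it lies on the opposite strand; Ifit1 and Ifit3 hold it a pair of times. Ifit1 is chr19:34640749-34640848, plus strand; Ifit3 is chr19:34583349-34583448, plus strand; Gbp2 is chr3:142620553-142620652, plus strand; Rsad2 is chr12:26456518-26456617, minus strand.
Ifit1: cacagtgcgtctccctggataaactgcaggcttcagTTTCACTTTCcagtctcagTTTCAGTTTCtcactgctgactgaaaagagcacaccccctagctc
Ifit3: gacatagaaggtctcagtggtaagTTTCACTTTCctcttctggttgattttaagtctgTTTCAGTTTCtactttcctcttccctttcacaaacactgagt
Gbp2: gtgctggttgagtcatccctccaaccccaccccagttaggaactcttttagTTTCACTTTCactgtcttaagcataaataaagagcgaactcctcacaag
Rsad2: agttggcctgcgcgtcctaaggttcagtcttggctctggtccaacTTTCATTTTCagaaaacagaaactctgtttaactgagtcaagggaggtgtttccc

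Antigen presentation followed in part. Of 27 MHC genes, 12 were lower and 0 higher (median -0.88), with 1 higher at an unadjusted p under 0.05. By class, in groups chosen after their values were seen, 7 of 8 MHC class II genes were lower (median -2.40). Of 9 class I heavy chains with B2m, 3 were lower (median -0.88). Of 8 genes of the immunoproteasome and peptide loading, 0 were called (median -0.35). Of these 8, 6 were lower at an unadjusted p under 0.05 of any size. Cd74, the invariant chain of class II, had 0.465, 0.381 and 0.835 CPM in control and 31.4, 31.1, 53.5 and 59.03 CPM after 5-FU (-6.30), and H2-Aa had 0 reads in each control library and 8.33, 11.97, 14.4 and 22.6 CPM after 5-FU, at least 292-fold lower. H2-K1, a class I heavy chain found on most cells, had 675, 669.9 and 725 against 1057, 1028, 1204 and 1217 CPM (-0.73), which is under 2-fold.

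Macrophage markers moved with these genes. Of 11 tested markers of monocytes and macrophages, 9 were lower in culture and 0 higher (3 lower among genes of at least 10 CPM), and the summed level of all 16 listed was 69.5 to 85.0 CPM in control and 180 to 239 CPM after 5-FU. C1qa, C1qb, C1qc, Adgre1 (F4/80) and Vcam1 had 0 reads in every control library. After 5-FU the complement genes and Adgre1 were low too, with Adgre1 at 3.22, 3.56, 3.35 and 6.08 CPM, and Vcam1 was at 11.9, 23.2, 24.7 and 41.4 CPM. Untreated replicate 3 had a macrophage list mean of 0.909 log2 CPM, between control (-0.834 to -0.551) and 5-FU (2.5 to 3.109). The untreated libraries summed to at least 159 CPM. The dendritic cell list mean of untreated replicate 3 was 3.504, against -0.001 to 0.592 in control. In that library Gbp9 stood at 124.6 CPM, Gbp6 at 84.1 CPM, Iigp1 at 105.9 CPM and Cd74 at 100.2 CPM. The part of these cell types in the interferon and MHC values was not tested.

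In the nifedipine libraries the macrophage markers summed to 224 to 243 CPM, as high as after 5-FU, with Lyz2, a lysozyme gene of myeloid cells, at a mean of 217 CPM. Their list mean, which weights each marker equally, was -0.38 to 0.12 log2 CPM. The interferon list stood there at 4.72 to 5.02, between control and 5-FU. Of the 60 genes 17 were lower there than after 5-FU, with a median of -0.38. Oas3, for instance, had 94.8 CPM with nifedipine, 14.1 CPM in control and 91.2 CPM after 5-FU, while Gbp9 had 3.84 and Cd74 0.372 CPM with nifedipine.

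**Figure D4:**
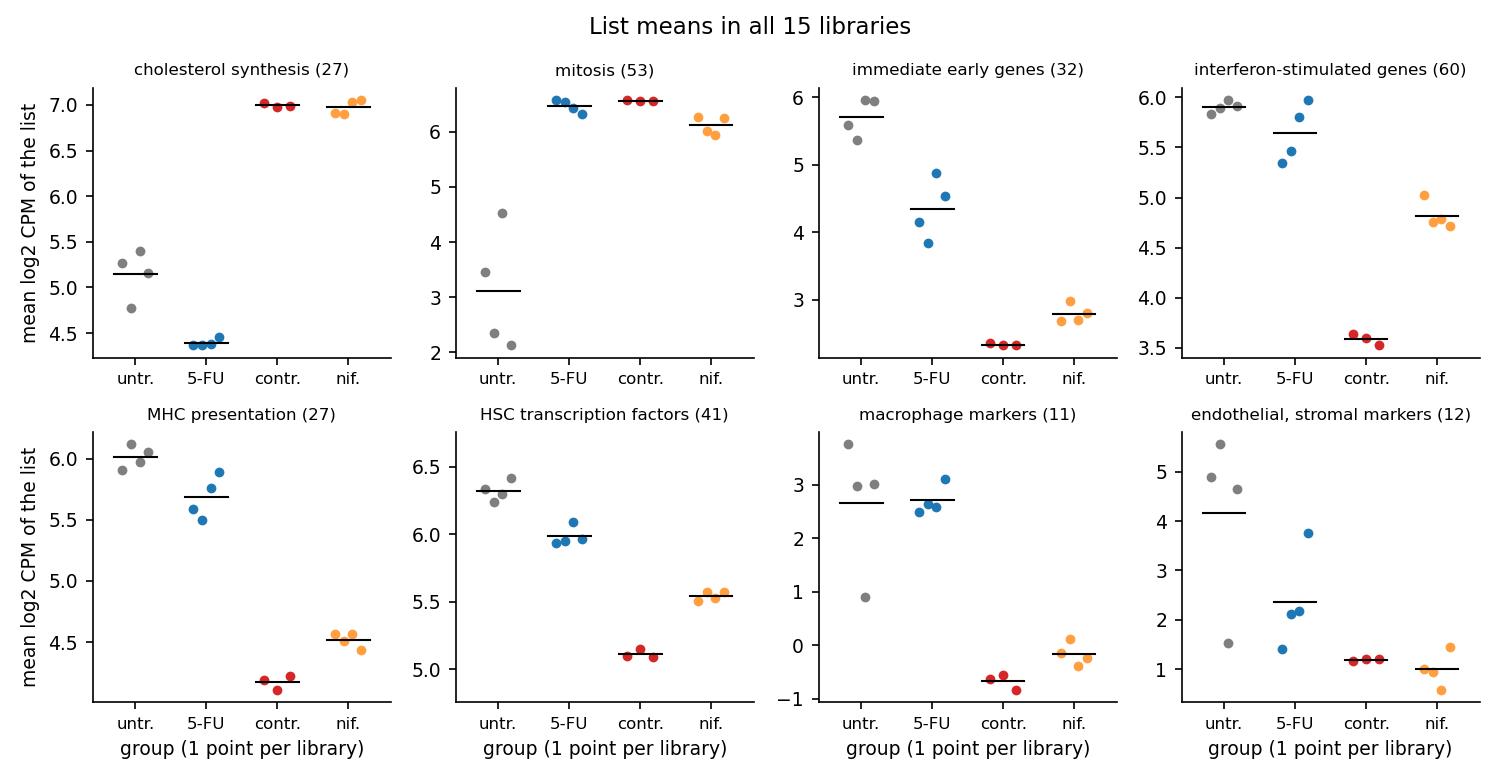
Mean log2 CPM of the tested members of 8 lists (number in parentheses; y axes differ in range) in each of the 15 libraries by group (untr., untreated; 5-FU, day 4 after 5-FU; contr., cultured control; nif., cultured with nifedipine), 1 point per library, the line the group mean. Cholesterol synthesis is high in both cultured groups (6.90 to 7.06) and low in both fresh groups (4.36 to 5.40), mitosis overlaps between 5-FU and control, and the interferon list is lowest in control (3.52 to 3.63); untreated replicate 3 has the lowest macrophage value of the fresh libraries, 0.91.

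A part of the genes of stem cell identity was lower in culture. Of 41 transcription factors, 16 were lower and 1 higher, beside 15.8% and 3.44% of all genes. The median was -0.58, and 24 of the 41 lay within 2-fold. The list mean was 5.09 to 5.15 log2 CPM in control and 5.94 to 6.09 after 5-FU. Hlf, a factor that marks long-term HSCs (chromosome 11, 90336535 to 90390917), had 216, 191 and 222 CPM in control and 849, 875, 944 and 996 CPM after 5-FU (-2.15 ± 0.0699 SE, adjusted p = 1.05e-11, edgeR). Mecom (Evi1), needed for HSC maintenance (chromosome 3, 29951296 to 30509783), had 271, 306 and 283 against 692, 721, 720.1 and 628 CPM (-1.29). The groups of both genes stood apart with room between.

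Mllt3, a chromatin reader that sustains HSCs, was lower, at -2.10, the factor Prdm16 at -1.89, Hoxa5 at -1.82, Nkx2-3 at -1.80 and the retinoic acid receptor Rarb at -1.97. Gfi1, a repressor that limits HSC division and drives granulocytes, had 0 reads in each control library and 29.1, 26.3, 37.98 and 40.7 CPM after 5-FU, at least 696-fold lower. Its relative Gfi1b, used in red cell and platelet lineages, was the 1 factor higher in culture, at 41.2, 45.1 and 43.1 against 11.3, 14.1, 13.6 and 10.7 CPM (1.78). Gfi1 had a mean of 6.06 CPM in nifedipine libraries.

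Not all factors of the list were lower. Of 10 core factors of blood cells, among them Runx1, Tal1, Lyl1, Fli1, Gata2, Lmo2, Ldb1, Meis1 and Erg, 0 were called in either direction. Of all genes tested, 19.2% were called. The 10 values lay between -0.58 and 0.42, with a median of -0.011. This group was picked after its values were seen, so it cannot test a contrast with the rest of the list. At an unadjusted p under 0.05 of any size 4 were higher and 4 lower. Of 8 HOX genes 3 were lower, and the other 5 lay between -0.77 and -0.20. The list as a whole had 8 lower genes with nifedipine in place of control.

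Among 37 surface and secreted genes of HSCs, 14 were lower and 6 higher (median -0.79), beside 15.8% and 3.44% of all genes. Procr (EPCR), a marker of the purest HSCs (chromosome 2, 155751125 to 155755478), had 7.28, 7.79 and 4.90 CPM in control and 65.2, 54.3, 63.5 and 79.6 CPM after 5-FU (-3.32 ± 0.17 SE, adjusted p = 7.74e-10, edgeR). Ly6a, which encodes Sca-1 and also responds to interferon, had 8.71, 7.73 and 7.51 against 86.7, 71.9, 108 and 120.4 CPM (-3.62), and Fgd5 had 87.8, 94.97 and 97.8 against 213, 219, 223 and 226 CPM (-1.26). Ltb was lower, at -4.85 and Robo4 at -2.96.

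Other sorting markers stayed within 2-fold. Slamf1 (CD150) had 43.8, 48.5 and 43.5 CPM in control and 35.7, 33.6, 37.3 and 36.1 CPM after 5-FU (0.32). Kit, the receptor for stem cell factor, had 458, 371 and 434 against 722, 689, 765 and 834 CPM (-0.86), and Cd34 lay just under the limit at 0.996. Kit and Cd34 lay close to the limit and were called under some alternatives. Cd48, absent from resting HSCs and found on progenitors, was higher in culture, with 12.1, 21.1 and 18 CPM in control and 1.55, 1.39, 1.94 and 3.58 CPM after 5-FU (2.97). The other 5 higher members were Plscr2 (3.07), Mfsd2b (2.31), the integrin genes Itgb3 (2.07) and Itga6 (1.27) and the tetraspanin gene Cd9 (1.29).

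The markers of HSCs and progenitors fixed to check the cell type were present in all 7 libraries, with a summed level of 2110 to 2230 CPM in control and 3810 to 4120 CPM after 5-FU, and 5 of the 12 were lower. These 5 (Procr, Fgd5, Hlf, Mecom and Ly6a) are among those just given.

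Of 33 cytokine and growth factor receptors, 9 were lower and 1 higher (median -0.75), beside 15.8% and 3.44% of all genes. With nifedipine in place of control 6 receptors were lower and 2 higher, and the median was -0.178. Csf3r, the G-CSF receptor, had 4.99, 4.19 and 4.38 CPM in control and 56.5, 77.97, 71.4 and 72.7 CPM after 5-FU (-3.95 ± 0.14 SE, adjusted p = 2.33e-11, edgeR), and Flt3, the receptor of multipotent progenitors, had 0.211, 0.272 and 0.574 against 12.1, 7.62, 12.03 and 9.08 CPM (-4.88). Il6ra (-3.23), Il3ra (-2.22), Il1r1 (-1.84) and Csf2ra (-1.50) were lower as well. Csf3r and Flt3 also stand in the granulocyte and dendritic cell marker lists. Csf2rb, the common beta chain of the IL-3 and GM-CSF receptors, was the higher one (1.15), near the 2-fold limit. Without TMM 15 receptors were lower.

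STAT5 lies below several of these receptors, and of 20 of its targets and feedback genes 3 were higher and 3 lower, the latter near the share of all genes. Without TMM 6 were lower. Pim2, a survival kinase, had 136, 159 and 133 CPM in control and 14.9, 15.7, 16.7 and 15.7 CPM after 5-FU (3.16), Gfi1b was higher as given, and Id1 was higher by 1.68. The feedback inhibitor Cish had 29.7, 36 and 25.1 against 91.1, 73.7, 73.5 and 63.3 CPM (-1.34); Gfi1 was lower as given, and Bcl6 was lower, at -1.54 with overlapping groups (0.886 against 2.56 CPM) and at -0.649 without 5-FU replicate 4. Pim1 was within 2-fold (-0.31).

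Adhesion genes moved in both directions, with 11 of 35 lower and 6 higher, beside 15.8% and 3.44% of all genes. Itgam (-5.78), Itgb7 (-3.44) and Cd82 (-2.74) were lower, and Itgam, an integrin of myeloid cells, had 0.127, 0.381 and 0 CPM in control and 12.3, 6.04, 9.39 and 9.40 CPM after 5-FU. The higher 6 were Cd48, Itgb3, Itga6 and Cd9, given above, with S1pr2 (1.87) and Pecam1 (1.14). Cxcr4, the receptor that holds HSCs in the niche, was within 2-fold (68.6, 66.5 and 69.6 against 100.5, 86.9, 130.5 and 102 CPM, -0.64). Podxl, a sialomucin that is no member of the list, had 379, 380.3 and 438 against 22.4, 27.4, 22.1 and 20.5 CPM (4.11).

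Of 28 genes of the calcium entry list, 8 were lower and 0 higher (median -0.52), beside 15.8% and 3.44% of all genes. Of the 28, 4 were higher at an unadjusted p under 0.05 of any size. With nifedipine in place of control 6 were lower and 1 higher, and the median was -0.108. Gem, a small GTPase that inhibits voltage-gated calcium channels (chromosome 4, 11704447 to 11714993), had 123, 176 and 128 CPM in control and 1020, 942, 800.0 and 868 CPM after 5-FU (-2.69 ± 0.12 SE, adjusted p = 2e-10, edgeR); untreated HSCs had 28.5 and nifedipine libraries 455 CPM. Control lay above untreated HSCs and below the other groups. Of the channel subunits Cacna1d was lower, at -4.08 from a low level (0.553 against 9.19 CPM), Cacnb1 at -1.97 and Cacna1c at -1.91. Itpr3, an IP3 receptor of the endoplasmic reticulum, was lower, at -1.54. Among genes of at least 10 CPM, 4 calcium genes were lower.

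Of 38 NRF2, glutathione and thioredoxin genes, 6 were higher and 9 lower, beside 3.44% and 15.8% of all genes. The higher ones included Slc7a11, Gclm (2.12) and Nqo1 (2.04). The lower ones (5 among genes of at least 10 CPM) included Gpx3 (-4.41), Mgst2 (-4.16), Gstm1 (-2.13) and Hmox1 (-1.72). Of 28 iron genes, the transferrin receptor Tfrc had 310.0, 289 and 316 CPM in control and 83.01, 92.2, 83.5 and 80.8 CPM after 5-FU (1.83), and the ferrireductase gene Steap3 was higher too (1.34). The iron exporter Slc40a1 (-3.29), Cd163 (-1.77) and Hmox1 were lower. These were 3 of 28 iron genes, a share below the 15.8% of all genes that were lower. Cd163, Hmox1 and Slc40a1 are also genes of macrophages, whose markers differed between the groups as given. The part of macrophages in the values of these 3 genes was not tested.

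Markers of other blood lineages differed, several of them at low levels. Gata1, the factor of red cells and megakaryocytes (chromosome X, 7959260 to 7976682), had 12.7, 7.19 and 9.54 CPM in control and 0.333, 0.0989, 0.411 and 0.576 CPM after 5-FU (4.68 ± 0.39 SE, adjusted p = 1.48e-07, edgeR), with 0.106 CPM in untreated and 0.0255 CPM in nifedipine libraries. Only the 3 control libraries held it above 1 CPM. Itga2b (CD41), an early megakaryocyte integrin, had 77.2, 127 and 82.5 against 5.83, 5.94, 10.2 and 5.76 CPM (3.75).

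Of 12 megakaryocyte markers 5 were higher and 1 lower: beside Itga2b these were Gp5 (3.17), Treml1 (1.93), Plek (1.90) and Pf4 (1.23), and Selp was lower (-1.02). Pf4 and Treml1 overlapped between the groups and were highest in control 2, with Pf4 at 20.5, 44.4 and 9.75 CPM in the control libraries. Without control 2, Pf4 was at 0.53 and Treml1 at 1.258, neither called. Selp was at -0.748 without control 3. With each library left out in turn, 3 to 6 of the markers were higher. The summed level of all 15 listed megakaryocyte markers was 629 to 828 CPM in control and 809 to 910 CPM after 5-FU. Of 9 erythroid markers Gata1 and Tfrc were higher, and Epb42 (-1.43) and Rhag (-1.42) were lower at under 10 CPM, with Rhag at -0.821 without 5-FU replicate 4 and Epb42 at -1.192 without 5-FU replicate 1, neither called.

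Several lists of other cell types had members lower in culture. Of 6 dendritic cell markers 4 were lower (H2-Aa, Flt3, Clec9a at -3.20 and Zbtb46 at -1.48), of 4 T and NK cell markers 2 (Klrb1c at -6.50 and Cd4 at -3.18), of 2 granulocyte markers both (Csf3r and Prtn3 at -1.04, or -0.776 and not called without 5-FU replicate 4), and Cd79b, the 1 B cell marker tested, lay at -1.10. The other 2 T and NK cell markers had positive values, up to 0.609. The summed level of all 13 listed T and NK markers was 19.1 to 26.9 CPM in control and 20.2 to 25.4 CPM after 5-FU. Neither of the 2 mast cell markers tested was called. Of 12 endothelial and stromal markers 6 were lower and Pecam1 was higher, and this rested on 1 library: the summed level was 164 to 188 CPM in control and 121 to 590 CPM after 5-FU, with the highest in 5-FU replicate 4, where Lepr, a marker of niche stroma, was at 0.278, 1.09, 0.352 and 28.3 CPM in the order of replicates. Without that library 2 stromal markers were lower.

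The named genes with the largest differences held several that belong to no family above. Emilin2, an extracellular matrix glycoprotein (chromosome 17, 71252172 to 71311633), had 223, 216 and 215 CPM in control and 4.44, 4.06, 2.64 and 2.49 CPM after 5-FU (5.99 ± 0.13 SE, adjusted p = 1.53e-13, edgeR). Fgf3, a fibroblast growth factor, had 28.9, 30.4 and 26.9 against 1.28, 0.0989, 0.0587 and 0 CPM (6.11), and 1.67 CPM in nifedipine libraries. Both genes were picked by a rule that required groups that do not overlap.

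Alox5, the lipoxygenase that begins leukotriene synthesis (4.36), the actin bundler Pls1 (4.21) and the alpha tubulin Tuba8 (3.94) completed the higher list. At the other end Gimap3, a GTPase of lymphoid cells, had 0 reads in each control library and 20.99, 18.5, 22.4 and 38.05 CPM after 5-FU, at least 517-fold lower. Mpeg1, a pore protein of macrophages and other phagocytes, had 0 reads in control and 9.49, 13.5, 13.7 and 20.02 CPM after 5-FU, at least 286-fold lower. Igf1, insulin-like growth factor 1, had 2 reads in all control libraries and 31.7, 44.4, 44.1 and 53.9 CPM after 5-FU, 1320-fold lower with a 95% counting interval of 364 to 10900.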

How the data were processed

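RNA from 100 sorted HSCs per library was sequenced from unstranded libraries. The deposited tables give whole-number counts of exon reads per gene and RPKM values, both made by the authors, per the file headers; the submitters' processing notes name the build mm10, and no source used here names the aligner or counter. Rows of a gene placed on several scaffolds were added up. Of 46102 genes, the 13225 that passed filterByExpr were tested with edgeR 4.0.16 (TMM, quasi-likelihood F test, Benjamini-Hochberg adjustment) in R 4.3.3, with calls needing 0.05 or less after adjustment and at least 2-fold. RPKM served to compare levels between genes. The script was tested on simulated data. Alternatives used DESeq2 1.42.0, limma 3.58.1 (voom), other scalings and filters, thinning to equal depth, offsets for exon length and GC, a replicate block, each library left out and nifedipine libraries in place of control.

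The members and lists were chosen with earlier results of these data known. Named genes were the 12 called genes with the largest difference in each direction (groups not overlapping, at least 10 CPM in the higher group, no predicted names), up to 8 called and the 4 most abundant members per family, all called members where 5 or fewer were called, and a fixed set. Genes named outside this rule, and the smaller groups within families, were chosen after their values were seen: Erg, Fli1, Gata2, Gbp2, Ggps1, Ifit3, Ldb1, Lpin1, Lyl1, Meis1, Mfsd2b, Oas3, Rsad2, Runx1, S1pr2, Srebf2, Stat2, Tal1. Promoters are from RefSeq. Some genes are not reported here.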

Additional observations from a re-analysis of the deposited data

Results flagged for a closer look

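In 3 of 54 lists the highest or lowest 5-FU library stood far from the other 3, by Dixon's criterion; chance gives about 1 in 20. The cholesterol list had its highest 5-FU value in replicate 4, at a mean of 4.462 log2 CPM, and still lay more than 2 log2 units under every control library. The cytosolic heat shock chaperones stood apart in 5-FU replicate 3, at 6.837. The B cell list, with 1 gene tested (Cd79b), stood apart in 5-FU replicate 2, at 2.97.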

How the results depend on the processing

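Of all genes, 269 were higher and 1064 lower among those with a mean of at least 10 CPM, and 1280 were lower with nifedipine libraries in place of control. With each library left out, 439 to 466 were higher and 1902 to 2186 lower. The median log2 fold change of the cholesterol list was 2.807 scaled by the RPKM read total, 2.536 without TMM and 2.689 to 2.772 with each library left out. That of fatty acid synthesis was 1.357, 1.088 and 1.243 to 1.313, and 1.186 at 10 CPM or more, 1.351 with offsets for length and GC and 0.964 with nifedipine. The mitosis list had 0.264 with the RPKM read total, 0.069 with the offsets, 0.119 to 0.188 with each library left out, and turned to -0.006 without TMM and -0.358 with nifedipine. The immediate early genes had -1.026 and the interferon list -0.383 with nifedipine, and -1.481 to -1.177 and -1.527 to -1.292 with each library left out. The HSC transcription factors had -0.494 with the RPKM read total, -0.761 without TMM, -0.663 at 10 CPM or more, -0.289 with nifedipine and -0.599 to -0.522 with each library left out. The causes were not tested.

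Libraries with the same replicate number did not deviate together (correlations 0.014, -0.026 and 0.010). Such correlations cannot exclude a shared source of these libraries. With the replicate as a block 446 genes were higher and 1831 lower, and the medians of the cholesterol and fatty acid lists were 2.775 and 1.313. Stromal markers were 2 lower under the block. Depth limits genes under 10 CPM, which made up 1144 of the 2083 lower calls.

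With nifedipine libraries in place of control, these genes had log2 fold changes of the opposite sign: Ccnb2 -0.118, Cdc20 -0.084, Cdkn1a 2.042, Cenpa -0.241, Dnmt3b -0.071, Dusp5 0.153, Ephx1 1.121, Gstm1 0.390, Hmox1 2.292, Il6ra 0.123, Pf4 -0.319, Phlda3 1.530, Selp 1.466, Slc40a1 1.013, Treml1 -1.052, Tsc22d3 0.090.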

Other observations

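Metallothionein 1 (Mt1), a metal-binding protein, had 6.30, 7.03 and 7.09 CPM in control and 3.00, 3.17, 2.17 and 2.37 CPM after 5-FU (1.33). Upp1, uridine phosphorylase, which splits the pyrimidine nucleoside uridine, had 2.45, 2.72 and 2.40 CPM in control and 7.77, 6.93, 6.22 and 4.29 CPM after 5-FU (-1.34), with 16.8 CPM in untreated and 1.77 CPM in nifedipine libraries. Of 24 polycomb and DNA methylation genes, 3 were higher and 1 lower: Idh1, which makes a cofactor of demethylases, at 2.71, the DNA methyltransferase Dnmt3b at 1.26 and Tdg, a glycosylase of DNA demethylation, at 1.02, against Cbx7, a polycomb subunit, at -2.03. Beside these polycomb and DNA methylation counts, 3.44% of all genes were higher and 15.8% lower. Tdg lay close to the 2-fold limit (0.995, no longer called, without 5-FU replicate 1), and 2 genes of this list were higher without TMM. Of 26 fatty acid oxidation genes 0 were higher by edgeR, DESeq2 or limma-voom, 15 at an unadjusted p under 0.05 of any size. Acot2 (-1.87) and Cpt1a (-1.21), which brings fatty acids into mitochondria, were lower. These were 2 of 26 genes, a share below the 15.8% of all genes that were lower.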
